A study of Mus musculus with 4 samples.

Results

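Acetylation of histone H3 at lysine 27 (H3K27ac) was called away from promoters in both the EGFP+ and the EGFP− cells of the limb, and in neither fraction of the trunk, at 941 regions of the fetal mouse genome. These distal limb regions shared by both fractions were chosen by the measured peak calls themselves. Peak intervals of the 4 lists that overlapped by at least 1 bp were merged into 62558 union regions, and 42651 of them lay outside promoters, taken as the 2 kb before and the 500 bp after each protein-coding transcription start site. The 941 regions were therefore 2.21% of all distal regions, with an exact 95% binomial interval of 2.07% to 2.35%, and 14.45% of the 6512 distal regions with a peak in both limb fractions. That they carried limb peaks and no trunk peak is the rule and not a result.

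The study profiled H3K27ac by ChIP-seq in 4 populations at E14.5 of mouse development, namely EGFP+ and EGFP− cells from limbs and EGFP+ and EGFP− cells from trunks. All 4 carried the same genotype, Col2a1-EGFP, on the G4 background, a male mouse embryonic stem cell line from which the fetuses were made by tetraploid aggregation. An EGFP cassette with a minimal β-globin promoter stood upstream of Col2a1, the gene of the main collagen of cartilage, so the EGFP+ fraction is a sort for cells that use the regulatory surroundings of that gene, and all fetuses came from 1 engineered clone. There was 1 library per population, made from tissue of several fetuses, so no value here has a replicate error and no test was made between populations. The names of the limb and trunk libraries carry different sequencing lanes, and tissue and lane cannot be told apart. More than 1 read length and more than 1 sonicator were named for these libraries without an assignment, and their part in the results was not tested. For the trunk EGFP− library, the entries of the list are named as replicate 2 but the sample is labelled replicate 1, which was followed here.

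H3K27ac marks the nucleosomes beside active enhancers and promoters, and a distal peak of the mark is commonly read as a candidate enhancer. A limb bud grows from mesenchyme whose position is set by transcription factors of the T-box, HOX, PITX, HAND and LIM-homeodomain families, and both its cartilage and its other connective tissues descend from that mesenchyme. The EGFP− fraction of such a sort is a mixture that can hold perichondrium, connective tissue, muscle, skin, vessels and blood. In sorted bulk cells, acetylation in fewer cells and less acetylation per cell cannot be told apart.

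The labels were checked on promoter peaks. The Col2a1 promoter held 110 reads at its strongest summit in limb EGFP+ cells against 14 in the EGFP− cells of the limb, and 84 in trunk EGFP+ cells, with no peak in trunk EGFP− cells. The promoters of Col9a1, Acan and Matn1, which encode other cartilage matrix proteins, had peaks in both EGFP+ lists and in neither EGFP− list. The promoter of Sox9, the chondrocyte transcription factor, had peaks in all 4 lists, with 103 and 35 reads in the EGFP+ and EGFP− cells of the limb and 82 and 44 in those of the trunk. The promoter of Tbx5, the T-box factor of the forelimb, held 36 reads in limb EGFP+ and 34 in limb EGFP− cells and had no trunk peak. The other limb markers had other patterns. The Tbx4 promoter held 59 reads in limb EGFP+, 35 in limb EGFP− and 11 in trunk EGFP+ cells. The Pitx1 promoter had a peak in limb EGFP+ cells alone, with 30 reads. Of the axial skeleton markers, Pax1 had a promoter peak in the trunk EGFP+ list alone, with 43 reads, and Pax9 had one there with 41 reads and one in the limb EGFP+ list with 14. Some markers of other tissues also had a promoter peak in an EGFP+ list and in no other, namely Myog of muscle with 13 reads and Sox10 of neural crest with 19 reads in the limb, and Scx of tendon with 25 reads in the trunk. The other markers of muscle (Myod1, Pax7), tendon (Tnmd), skin epithelium (Krt5, Krt14, Trp63) and endothelium (Cdh5, Pecam1) had no promoter peak in any of the 4 lists, so the make-up of the EGFP− fractions was not shown by these genes.

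The sequences of 10 of the regions are shown because the results turn on them. They are 201 bases of the GRCm39 plus strand, read 5′ to 3′ and centred on the EGFP+ summit, and capitals mark matches to the motifs searched on both strands. Of these motifs, the letters are GGAATGT for TEAD, CATCTG for an E-box of TWIST, CAGCTG for an E-box of muscle factors, CTTTGAT for TCF/LEF, TAATTA for the homeodomain core, TAAAAATAG for MEF2, TTTATNG for posterior HOX, TTGGCA for a half-site of NFI, GGATTA for PITX and TGTGGTT for RUNX. The first 6 are the strongest region, by the lower of its limb −log10 p values, beside each of the 6 listed genes that had the most regions. The next sequence had the highest ratio of EGFP+ to EGFP− reads and the one after it had the lowest. The last are the regions with the highest lower −log10 p. By exact 31-mers of the reference genome, the chromosome X region had a median of 1 copy and the chromosome 14 region was repeated.
Tbx5, chr5:120055149-120055349: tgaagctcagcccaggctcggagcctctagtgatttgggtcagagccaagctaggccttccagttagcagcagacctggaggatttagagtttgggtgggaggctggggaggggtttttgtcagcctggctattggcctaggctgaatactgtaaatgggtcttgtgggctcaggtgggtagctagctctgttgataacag
Hand2, chr8:57781425-57781625: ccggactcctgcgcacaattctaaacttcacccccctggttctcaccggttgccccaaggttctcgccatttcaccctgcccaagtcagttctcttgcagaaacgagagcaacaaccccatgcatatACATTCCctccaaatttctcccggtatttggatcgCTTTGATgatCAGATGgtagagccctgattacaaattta
Sall1, chr8:89834711-89834911: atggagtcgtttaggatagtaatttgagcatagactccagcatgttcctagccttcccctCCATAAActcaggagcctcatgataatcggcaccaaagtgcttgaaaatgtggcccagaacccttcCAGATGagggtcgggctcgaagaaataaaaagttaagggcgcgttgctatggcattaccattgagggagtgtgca
Prrx2, chr2:30726492-30726692: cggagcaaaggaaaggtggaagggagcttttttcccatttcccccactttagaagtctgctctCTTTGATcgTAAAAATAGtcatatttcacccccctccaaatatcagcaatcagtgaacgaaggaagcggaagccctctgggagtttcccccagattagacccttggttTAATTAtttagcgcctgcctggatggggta
Osr1, chr12:9600248-9600448: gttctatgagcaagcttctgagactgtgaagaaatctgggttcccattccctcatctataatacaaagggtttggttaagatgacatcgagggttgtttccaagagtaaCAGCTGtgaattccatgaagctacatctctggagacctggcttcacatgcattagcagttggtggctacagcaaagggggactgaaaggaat
Twist2, chr1:91685018-91685218: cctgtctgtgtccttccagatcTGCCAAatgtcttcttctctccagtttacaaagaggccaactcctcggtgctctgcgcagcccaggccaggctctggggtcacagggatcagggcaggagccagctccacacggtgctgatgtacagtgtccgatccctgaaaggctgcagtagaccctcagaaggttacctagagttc
Col2a1, chr15:97900528-97900728: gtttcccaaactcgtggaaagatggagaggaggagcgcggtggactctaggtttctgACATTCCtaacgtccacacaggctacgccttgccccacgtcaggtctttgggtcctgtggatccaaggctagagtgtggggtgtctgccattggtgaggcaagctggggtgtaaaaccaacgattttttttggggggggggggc
Twist1, chr12:34016668-34016868: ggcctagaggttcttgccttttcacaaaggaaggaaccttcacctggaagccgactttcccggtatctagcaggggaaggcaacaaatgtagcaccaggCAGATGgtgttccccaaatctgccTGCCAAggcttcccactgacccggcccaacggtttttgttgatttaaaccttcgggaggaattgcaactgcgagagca
Chromosome X, chrX:142265946-142266146: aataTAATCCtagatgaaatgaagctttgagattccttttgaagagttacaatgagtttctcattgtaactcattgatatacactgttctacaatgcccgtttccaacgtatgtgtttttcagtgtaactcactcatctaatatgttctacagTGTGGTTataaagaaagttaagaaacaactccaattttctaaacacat
Chromosome 14, chr14:3050816-3051016: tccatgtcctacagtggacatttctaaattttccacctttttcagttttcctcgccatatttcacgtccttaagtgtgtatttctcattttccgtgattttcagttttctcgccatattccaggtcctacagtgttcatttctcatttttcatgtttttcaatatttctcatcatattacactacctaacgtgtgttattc
The Hand2 sequence held a TEAD match, a TCF/LEF match and a TWIST E-box match, and the Prrx2 sequence held the homeodomain core with a TCF/LEF and a MEF2 match. No searched motif fell within the Tbx5 or the chromosome 14 window, which says only that these letters are absent from those 201 bases.

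The 941 regions were 1 of 15 combinations of lists among the distal regions. Peaks of a single list were the most frequent, with 9319 regions of limb EGFP+ cells alone and 6753 of limb EGFP− cells alone. Regions with peaks in the EGFP+ lists of both tissues numbered 4623, and those in the EGFP− lists of both tissues 1969. The matching class of the trunk, with peaks in both trunk fractions and no limb peak, held 430 regions. All 4 lists had a peak at 3785 regions.

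**Figure D1:**
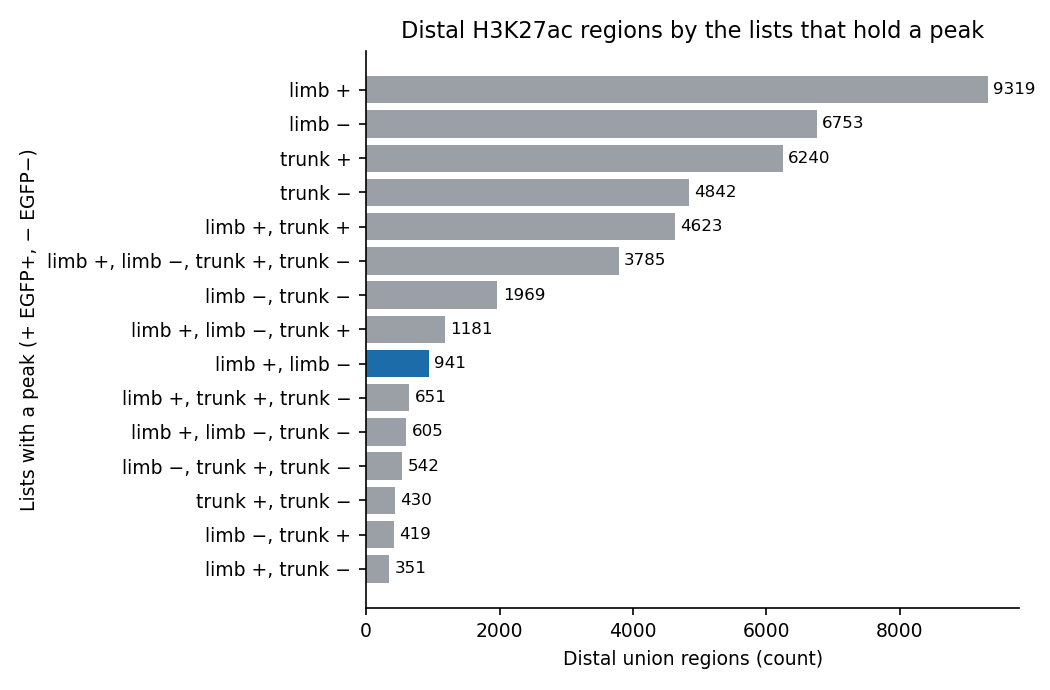
Number of distal union regions (horizontal axis) for each combination of lists with a peak (vertical axis, + for EGFP+ and − for EGFP−). The blue bar is the 941 regions with peaks in both limb fractions and none in the trunk, fewer than the 3785 with peaks in all 4 lists and more than the 430 of both trunk fractions.

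Most of the 941 regions were weak peaks. The number of reads under a summit was recovered from the fold and the −log10 p of each entry. In limb EGFP+ cells it had a median of 16 (range 7 to 102), and the limb EGFP− median was 15 (range 7 to 112). The median fold over the local background was 3.94 in EGFP+ and 3.75 in EGFP− cells, and the median −log10 p was 7.03 and 6.52. In regions with peaks in all 4 lists the median summit held 34 reads in limb EGFP+ and 30 in limb EGFP− cells, and over all distal regions with a peak in the given list it held 17 and 15. Of the 941 regions, 194 rested on 10 reads or fewer in at least 1 limb list and 15.4% had a −log10 q of 5 or more in the EGFP+ and the EGFP− list alike. The regions had a median width of 420 bp and covered 0.427 Mb in all.

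The 2 limb peaks of a region mostly lay on top of each other. Their summits were a median of 80 bp apart, 550 regions had them within 100 bp, and 55 had them more than 300 bp apart. The shorter interval was covered to a median of 92.1% by the other, and 899 regions held 1 interval of each fraction. At the edge of the rule, 48 regions were joined by an overlap of under 50 bp, the smallest of 2 bp. Just outside it, 151 of the 9319 regions of limb EGFP+ cells alone had an EGFP− interval within 100 bp.

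The absence of a trunk peak was a matter of the called lists. A trunk interval lay within 1 kb of 298 regions (31.7%, exact 95% interval 28.7% to 34.8%), within 5 kb of 395 and within 100 kb of 894, with a median distance of 6896 bp. Of the 298, 121 had intervals of both trunk fractions that near, 107 of the EGFP+ fraction alone and 70 of the EGFP− fraction alone. A summit in the surroundings of the median region, taken at its limb local background, would have needed 11 reads to enter either trunk list. The lower 95% Poisson bound of the limb reads, scaled to the trunk library of the same fraction, exceeded that need in both fractions at 86 regions, and 41 of these had no trunk interval within 5 kb. At the remaining regions, a trunk level equal to the limb level could have been missed at this depth in at least 1 fraction. The bounds cover counting error only.

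The balance between the fractions lay near equality. The rule keeps only regions with a peak in both limb fractions, so this balance is in part set by the rule and is a description. Reads were divided by the floor background of their library, 1.49 reads per 200 bp in limb EGFP+ and 1.63 in limb EGFP− cells, and are called scaled reads. The scaled EGFP+ value was higher at 597 of 941 regions, or 63.4% (exact 95% interval 60.3% to 66.5%), where the background over all 6512 distal regions with peaks in both limb fractions was 67.5%. It was at least 2-fold higher at 89 regions (9.46%, interval 7.66% to 11.5%) against a background of 15.3%, and the EGFP− value was at least 2-fold higher at 21 regions (2.23%, interval 1.39% to 3.39%) against 3.33%. The median log2 ratio of EGFP+ to EGFP− scaled reads was 0.19, with the middle 50% of regions between -0.17 and 0.57. The Poisson intervals of the 2 fractions did not overlap, after the same scaling, at 38 regions (4.04%) that were higher in EGFP+ cells. They did not overlap at 2 regions (0.21%) that were higher in EGFP− cells. These shares were not computed over the 6512 distal regions, so they are not read as a trait of the 941. Without dividing by the library floor the share with more EGFP+ reads was 51.1%, a share that leaves out regions of equal counts. The size of the share with more EGFP+ reads therefore depends on that scaling. Across the 941 regions the scaled reads of the fractions had a Spearman's rho of 0.41 and their local backgrounds one of 0.67, as a description over regions that share the same pair of libraries.

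**Figure D2:**
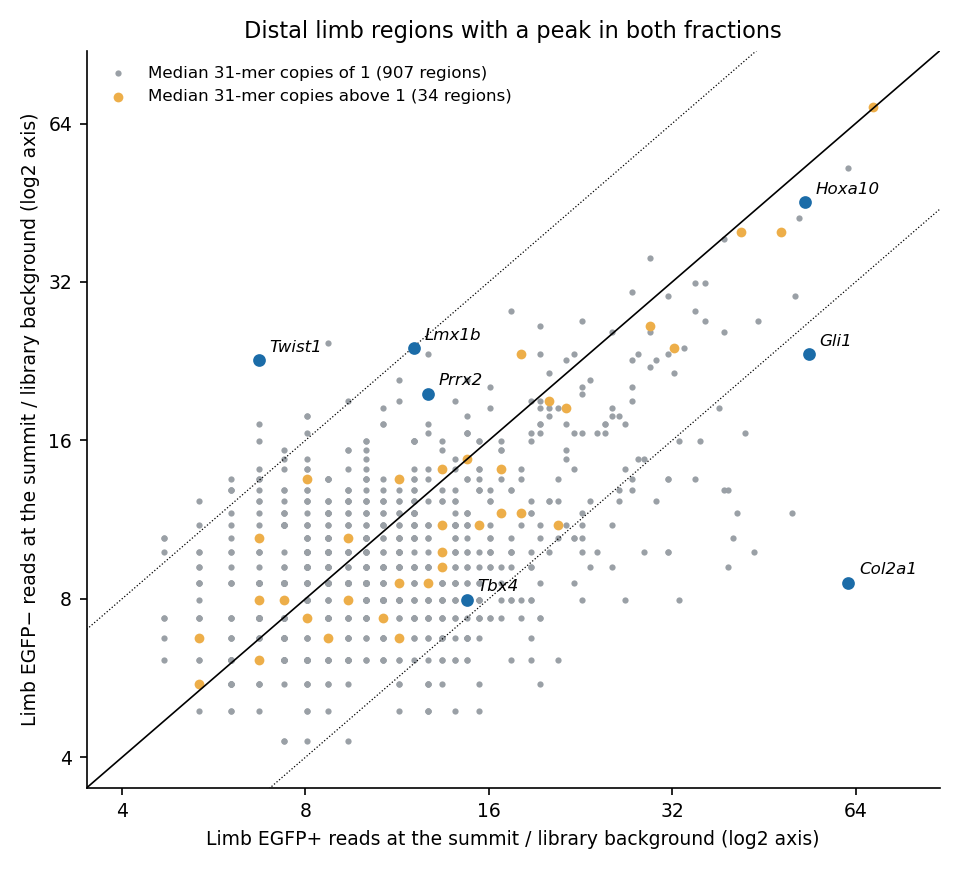
Scaled reads at the summit of each of the 941 regions in limb EGFP+ cells (horizontal axis) and limb EGFP− cells (vertical axis), both on log2 axes, with equality as the solid line and 2-fold differences as dotted lines. Regions whose 31-mers occur more than once in the genome are orange, and 1 region each near 7 genes is blue, with Col2a1 farthest to the EGFP+ side (93 against 14 reads) and Twist1 farthest to the EGFP− side (10 against 37).

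Among the 129 regions with at least 30 reads at either summit, the extremes of the ratio were named. The region at Col2a1 lay 1.84 kb downstream of the start site, in an exon that the annotation gives to non-coding transcripts of the gene, at chr15:97900385-97900849. It held 93 reads in EGFP+ cells (Poisson 95% interval 75.1 to 114) and 14 in EGFP− cells (7.65 to 23.5), a ratio of scaled reads of 7.26. The intervals lay far apart, and a trunk interval ended 0.393 kb away, so this locus was not silent in the trunk. The local background was 42.1 reads per 200 bp in limb EGFP+ and 3.38 in limb EGFP− cells, with folds over it of 2.18 and 3.42. The ratio of reads therefore takes in the signal around the summit. The EGFP cassette stands at the same gene, and its part in the signal was not tested.

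The other regions of high ratio were in introns. An intron of Stk4, a kinase of the Hippo pathway, held 65 EGFP+ and 16 EGFP− reads at chr2:163979368-163979742, a ratio of 4.44. An intron of Cspg4, which encodes the NG2 proteoglycan, held 75 and 19 reads at chr9:56788455-56788882, a ratio of 4.31, with a trunk interval 0.304 kb away. At both, as at Col2a1, the intervals of the fractions did not overlap. The EGFP+ and EGFP− local backgrounds were 19.6 and 3.90 reads per 200 bp at Stk4 and 35.5 and 5.38 at Cspg4.

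On the EGFP− side, the intergenic region 8.98 kb downstream of Twist1, a basic helix-loop-helix factor of mesenchyme, held 10 EGFP+ reads (4.80 to 18.4) and 37 EGFP− reads (26.1 to 51.0). The ratio of scaled reads was 0.295, and the local background was 2.12 reads per 200 bp in EGFP+ and 13.7 in EGFP− cells. An intron of Smg6, an endonuclease of nonsense-mediated decay, held 13 and 40 reads, a ratio of 0.355, with local backgrounds of 3.54 and 12.5. These were the 2 regions whose Poisson intervals lay apart in that direction. A region 18 kb downstream of Fos, a subunit of AP-1, followed with 14 and 31 reads and a ratio of 0.493, and its intervals overlapped. Its local backgrounds were 3.80 and 4.52.

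The regions lay for the most part in ordinary places for distal peaks, with fewer in coding exons, 7 regions or 0.744% against 2.04% over all distal regions. Introns of protein-coding genes held 43.1% of the strongest summits, against 44.4% over all distal regions, and 28.3% were intergenic against 25.7%. The median distance to a protein-coding start site was 36134 bp, against 34316 bp. A start site of a non-coding transcript lay within 500 bp of 113 regions (12.0%), against 12.3%. The GC content within 250 bp of the strongest summit had a median of 47.9%, against 48.1%. Chromosome 6 held the most regions, 79 of its 2482 distal regions.

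The 40 genes of the limb patterning list, a textbook list of factors that set limb position, identity and axes, had the highest share of the 10 lists. A start site of one of them lay within 100 kb of 14 regions, or 1.49% (exact 95% interval 0.816% to 2.48%), where the share over all distal regions was 0.513%. The share was 0.303% (0.166% to 0.508%) for EGFP+ peaks of both tissues and 0.508% (0.244% to 0.932%) for EGFP− peaks of both tissues. It was 1.86% (0.807% to 3.63%) for the 430 regions of both trunk fractions, so a share of this size was not particular to the limb. Of the trunk regions that gave this share, 4 lay within 100 kb of Hoxc10 and 3 within 100 kb of Hoxc11. Tbx4, Meis2, Irx3, Hoxa9, Hoxa10, Hoxa11 and Hoxa13 each had 1 within 100 kb. Tbx5, Hand2 and Sall1 had none. With the limb lists held to a −log10 q of 5 or more it was 0.690%, which is 1 region, and with the 20000 strongest intervals per list it was 0.485%, again 1 region. The 14 regions are few, and no test was made.

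Counted by gene, 12 of the 40 limb patterning genes (30%) had at least 1 of the regions within 100 kb, where the background over all 21581 protein-coding genes was 8.34%. These genes are not independent, since Hoxa9, Hoxa10, Hoxa11 and Hoxa13 share 1 region and Tbx2 and Tbx4 share another. The perichondrium and bone list and the skeletal muscle list came close to this share, each with 5 of 18 genes (27.8%). The other lists were tendon, joint and connective tissue with 3 of 20, limb signalling with 3 of 24, chondrocyte with 3 of 26, and endothelium and blood with 2 of 18. None of the 16 skin epithelium genes, the 12 nerve and neural crest genes or the 17 axial skeleton genes had one. By region, the chondrocyte list was near 3 of the 941 (0.319%, interval 0.0658% to 0.929%), against 0.736% of all distal regions and 2.08% (1.69% to 2.53%) of the EGFP+ peaks of both tissues. The axial skeleton list was near 0 of the 941, with an exact upper bound of 0.391%, against 0.277% of all distal regions and 2.33% (1.12% to 4.24%) of the regions of both trunk fractions. The shares near the muscle (0.425%), perichondrium and bone (0.638%), tendon (0.425%), limb signalling (0.319%) and endothelium and blood (0.213%) lists had intervals that held the share over all distal regions. So did the shares near the chondrocyte, axial skeleton, skin epithelium, and nerve and neural crest lists. Only the limb patterning interval did not hold it.

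**Figure D3:**
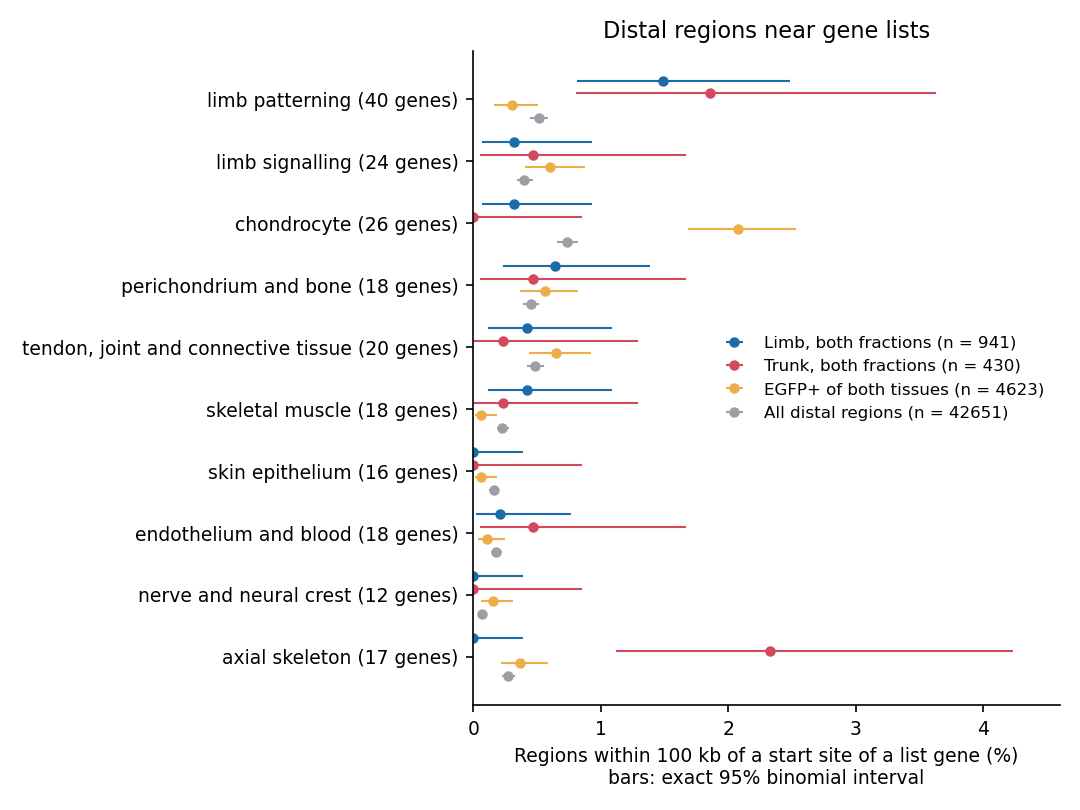
Share of regions within 100 kb of a start site of a gene of each of 10 lists (horizontal axis, percent), for 4 classes of distal regions (colours), with exact 95% binomial intervals for counting error only. The limb regions shared by both fractions stand at 1.49% for limb patterning genes and at 0 for axial skeleton genes, and the trunk regions of both fractions at 1.86% and 2.33%.

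Of the factors that start a limb, Tbx5 had 3 of the regions within 100 kb of its start sites, among 12 distal regions there. The gene stands at chr5:119970733-120023284 on the plus strand. A pair of regions upstream, 28.1 kb and 27.5 kb from the nearest start site, held 30 EGFP+ and 35 EGFP− reads and 29 and 28 reads. The region downstream, 80.5 kb away, held 14 and 12 reads. The fractions differed by less than counting error at each, and the nearest trunk intervals lay 61.9, 61.3 and 36.3 kb away. In the same window, 4 distal regions had a peak in limb EGFP+ cells alone and 4 in limb EGFP− cells alone, so most limb peaks around Tbx5 were called in 1 fraction.

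Hand2, a basic helix-loop-helix factor of the posterior limb bud that acts upstream of Sonic hedgehog, also had 3, among 10 distal regions. The region 7.67 kb upstream held 13 EGFP+ and 20 EGFP− reads. The region 7.08 kb downstream, in an intron of the antisense transcript Hand2os1, held 29 and 31 reads, and the one 12.7 kb downstream 12 and 23. The Poisson intervals of the fractions overlapped at all 3. The Hand2 promoter held 47 and 40 reads in the limb fractions and had no trunk peak, as the promoter of Tbx5.

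The hindlimb factors had 1 region each. Pitx1, which sets hindlimb identity, had a region 13.8 kb downstream with 13 EGFP+ and 12 EGFP− reads. Tbx4, the T-box factor of the hindlimb, had one 8.95 kb upstream with 22 and 13 reads, which also lies 44.1 kb downstream of Tbx2. The Pitx1 promoter was called in limb EGFP+ cells alone, with 30 reads, and that of Tbx4 held 59 and 35 reads in the limb and 11 in trunk EGFP+ cells.

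A single region in the HoxA cluster served 4 listed genes. It lay within Hoxa10, a posterior HOX factor of the limb, 1.53 kb downstream of its start site, at chr6:52209953-52210387, and within 100 kb of Hoxa9, Hoxa11 and Hoxa13. It held 79 EGFP+ reads (62.5 to 98.5) and 74 EGFP− reads (58.1 to 92.9), more than all but a few of the 941 regions. Its folds were 1.90 and 2.67, since its local background was 41.0 and 27.1 reads per 200 bp. The Hoxa10 promoter had peaks in all 4 lists, with 110, 73, 45 and 36 reads in limb EGFP+, limb EGFP−, trunk EGFP+ and trunk EGFP− cells.

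Among factors of the axes and of limb mesenchyme, Sall1, a zinc-finger factor, had 2 regions. They lay 28.6 and 63.8 kb upstream and held 12 and 11 EGFP+ reads and 9 and 10 EGFP− reads. The paired-type homeobox gene Prrx2 had 2 adjacent regions in an intron, 1.46 and 1.87 kb downstream of its start site, with 19 and 22 EGFP+ reads and 32 and 29 EGFP− reads. Lmx1b, the LIM-homeodomain factor of the dorsal limb, had one 76.7 kb upstream with 18 EGFP+ and 39 EGFP− reads, a ratio of 0.504. The nearest trunk interval lay 54.9 kb from the nearer Sall1 region and 1.78 kb from the Lmx1b region. The Poisson intervals of the fractions overlapped at the Sall1 and Prrx2 regions and, narrowly, at Lmx1b, with an upper bound of 28.4 EGFP+ and a lower bound of 27.7 EGFP− reads.

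Genes of signalling and of the neighbouring tissues gave single regions for the most part. Gli1, a transcription factor and target of Hedgehog signalling, had one 0.662 kb downstream of its start site with 80 EGFP+ and 38 EGFP− reads, a ratio of 2.3, and a trunk interval 0.195 kb away. Twist2 and Osr1, factors of perichondrium and of irregular connective tissue, had 2 each. A trunk interval lay 0.383 kb from a Twist2 region and another 0.525 kb from an Osr1 region. The 4 regions held 12 to 16 EGFP+ reads and 14 to 20 EGFP− reads, with the EGFP− value higher at each on the scaled reads and the intervals overlapping. Myog, the muscle differentiation factor, had one 2.26 kb downstream with 11 and 21 reads, and its promoter had 13 reads in limb EGFP+ cells and no peak in the other lists. Sox11, a factor of the perichondrium, had one 88.1 kb downstream with 22 and 11 reads, and the nearest trunk interval lay 56.1 kb away. The Twist2 and Sox11 promoters had peaks in all 4 lists, and the Osr1 promoter in both limb lists and the trunk EGFP− list.

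Over the whole genome, 1569 genes had 1 of the regions within 100 kb, 200 had 2, 26 had 3, 3 had 4 and 2 had 5. The genes with 5 were Cxcl14, a chemokine, and Creb5, a bZIP transcription factor. The 5 regions around Cxcl14 spread from 6.69 kb downstream to 84.2 kb upstream on chromosome 13. They held 10, 13, 16, 13 and 10 EGFP+ reads and 18, 17, 28, 17 and 20 EGFP− reads, in order along the chromosome. All 5 were higher in EGFP− cells after scaling, with ratios from 0.546 to 0.835, although the Poisson intervals overlapped at each. The Cxcl14 promoter had a peak in limb EGFP− cells alone, with 22 reads. The proneural gene Neurog1, which had no promoter peak in any list, was named for 4 of the same regions and has none of its own.

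Around Creb5, the 5 regions held 18, 20, 18, 23 and 21 EGFP+ reads and 14, 21, 15, 13 and 18 EGFP− reads. The last 2 stand 81.1 and 81.4 kb from a start site, with trunk intervals 0.058 and 0.414 kb away, and the promoter had peaks in all 4 lists. Igsf3, which encodes an immunoglobulin-domain membrane protein, had 4 regions with 17, 44, 29 and 31 EGFP+ reads and 18, 36, 14 and 17 EGFP− reads. Irf2bpl, which encodes a nuclear protein related to a partner of the interferon regulatory factor IRF2, had 4. They held 41, 19, 76 and 47 EGFP+ reads and 31, 13, 49 and 49 EGFP− reads, and 5 distal regions in the same window had peaks in all 4 lists. The Creb5, Igsf3 and Irf2bpl promoters were called in the trunk too.

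**Figure D4:**
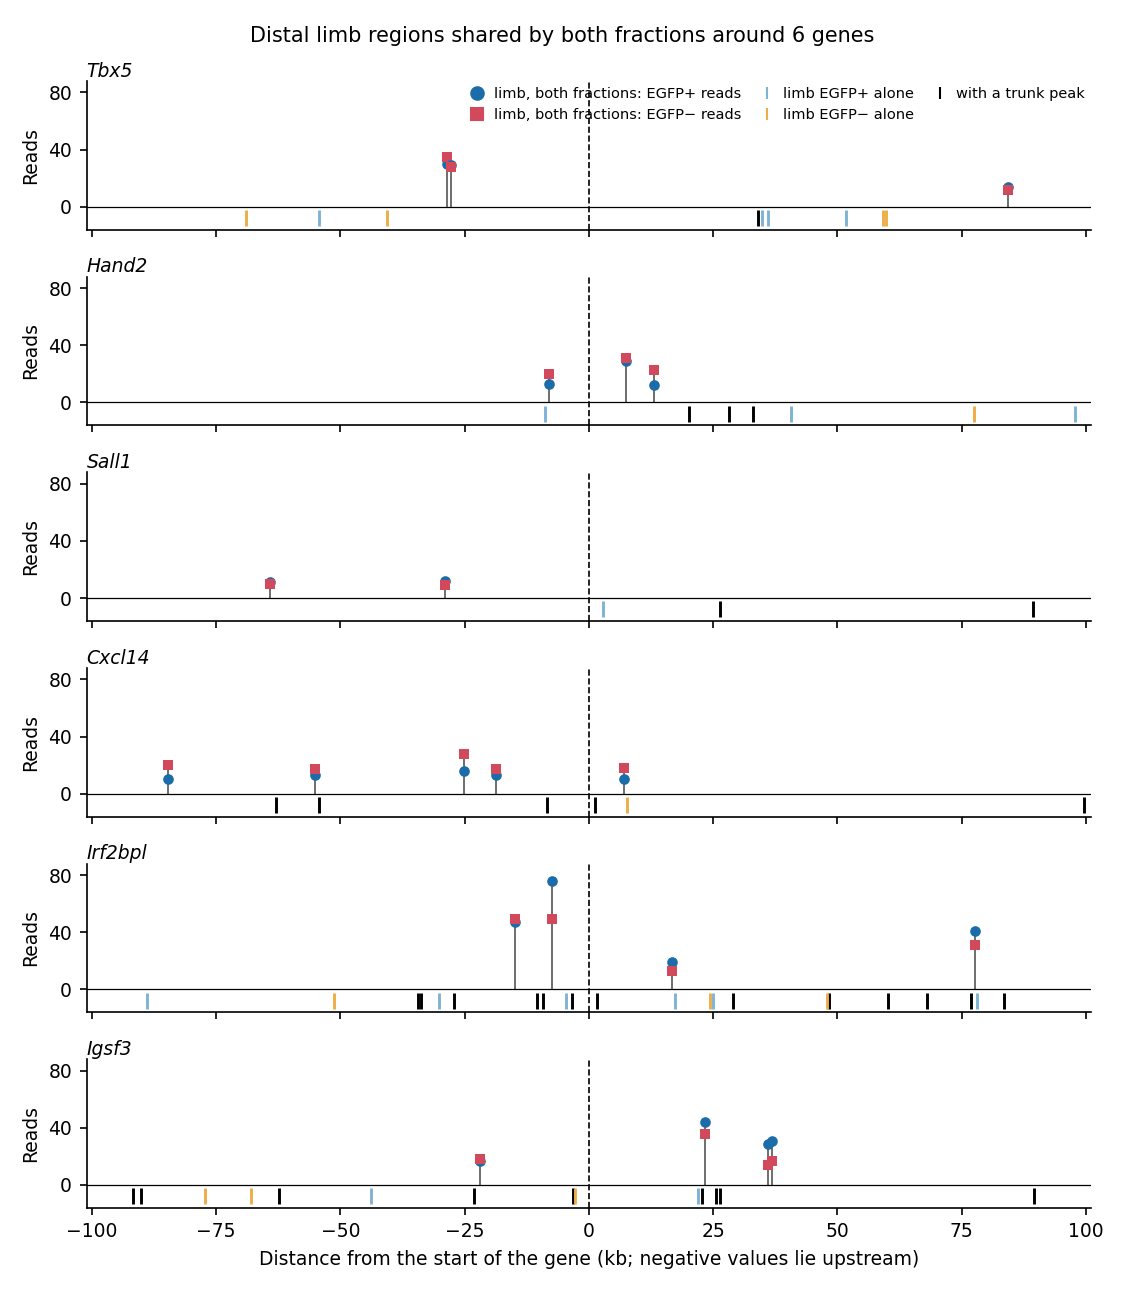
Reads at the summit in limb EGFP+ cells (circles) and limb EGFP− cells (squares) of the distal limb regions shared by both fractions, by distance from the outermost annotated start of 6 genes (horizontal axis, kb), which can differ from the nearest start site given in the text. Ticks under each axis are the other distal regions, called in limb EGFP+ cells alone (light blue), in limb EGFP− cells alone (orange) or in at least 1 trunk list (black), and the 5 regions of Cxcl14 all have the square above the circle.

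Most regions stood alone. Regions no more than 100 kb apart were chained, which left 684 on their own, 93 pairs, 15 chains of 3, 3 chains of 4, 1 of 5 and 1 of 9, and 52 regions (5.53%) had another within 1 kb. The longest chain lay within 35.0 kb at the centromeric end of chromosome 9, over 298 kb from the nearest protein-coding gene, Alkbh8. The next were the 5 around Cxcl14 and 4 each at Irf2bpl, at Igsf3 and upstream of Gas1, a membrane co-receptor of Hedgehog proteins. The 4 at Gas1 spread over 201 kb that held 27 distal regions in all.

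The promoters nearest to the regions were mostly shared by all populations. The nearest protein-coding gene had a promoter peak in all 4 lists for 574 regions, or 61.0% (57.8% to 64.1%), against 60.2% over all distal regions. For 171 regions (18.2%) it had no promoter peak in any list, against 19.4%. It had a promoter peak in at least 1 limb list and in no trunk list for 66 regions, or 7.01% (5.47% to 8.84%), against 4.89% over all distal regions and 3.49% (1.97% to 5.69%) at the trunk regions of both fractions. In 10 cases, or 1.06% (0.511% to 1.95%), it had peaks in both limb lists and in no trunk list, the pattern of the regions themselves. That interval held the share over all distal regions, 0.640%. Promoter peaks were no part of the rule, but they come from the same 4 libraries.

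The strongest of the regions were in part repeated sequence. The 31-mers within 50 bp of the strongest summit occurred a median of more than 1 time in the genome at 34 regions, or 3.61% (2.52% to 5.01%), where the background over all distal regions was 0.996%. At 12 regions the median was at least 10 copies. Of the 20 regions with the highest lower −log10 p, 8 were repeated. The region of chromosome 14 printed above had 102 EGFP+ and 112 EGFP− reads, the highest count of the 941 in each fraction, a median of 42 copies and a trunk interval 0.609 kb away. All 9 regions of the chain on chromosome 9 were repeated, with medians of 2 to 104 copies and 22 to 72 EGFP+ and 19 to 65 EGFP− reads. Of the 16 union regions in the first 3.1 Mb of that chromosome, 9 were of this class and 2 had peaks in all 4 lists. The authors kept reads of high mapping quality, and the part of the repeats in these values was not tested.

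Regions with unique 31-mers also stood at the top. The count covers exact 31-mers of the reference genome, so diverged or unassembled copies would be missed. The highest lower −log10 p belonged to an intergenic region 35.1 kb upstream of Pak3, a kinase gene, at chrX:142265861-142266247. It held 54 EGFP+ reads (40.6 to 70.5) and 52 EGFP− reads (38.8 to 68.2), with folds of 19.1 in both, where 8 reads would have made a peak in either trunk list. No trunk interval lay within 18.3 kb. Whether this region is a diverged repeat was not tested. A region in an intron of the non-coding gene Gm19064 on chromosome 6, with 37 and 27 reads, had no trunk interval within 106 kb and needed 7 and 8 reads for a trunk peak. Others stood 90.0 kb downstream of Axin2, a feedback inhibitor of Wnt signalling, with 40 and 28 reads, and in an intron of Cdk5rap2, a centrosome gene, with 37 and 28 reads. At each of these 4 the fractions overlapped in their Poisson intervals. The remaining named ones were near Igf2bp3, with 20 and 23 reads and a median of 2 copies, and in an intron of Spsb1, with 41 and 37 reads and a trunk interval 0.144 kb away.

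Motif letters were searched within 250 bp of the strongest summit on both strands. Beside those spelled out above, they were AGGTGTNA for T-box factors, TGACAG for MEIS, TGATTNAT for HOX-PBX, AACAATNG for SOX, TGANTCA for AP-1, CCGGAAGT for ETS, TGTTTAC for FOX, TGGGTGGTC for GLI and GGGCGGG for KLF/SP. A base may count for more than 1 motif. A match describes the letters and not a bound site.

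The motif shares differed from the trunk class in both directions. The T-box letters were found in 70 regions, or 7.44% (5.84% to 9.31%), against 5.59% of all distal regions, 7.34% of limb EGFP+ peaks alone and 3.49% (1.97% to 5.69%) of the trunk regions of both fractions. The posterior HOX letters were found in 24.4% (21.7% to 27.3%), against 21.6%, 24.5% and 18.8% (15.3% to 22.9%), so the intervals of the limb and trunk classes overlapped. The HOX-PBX letters were found in 6.06% (4.62% to 7.78%), against 6.48%, 7.11% and 6.74% (4.56% to 9.54%). The intervals of all 3 shares held the share of the limb EGFP+ peaks alone. MEIS letters were found in 28.5% (25.6% to 31.5%), against 32.4% of all distal regions and 40.7% (36.0% to 45.5%) of the trunk class. The muscle E-box letters were found in 29.9% (27% to 33%), against 31.3% and 40.5% (35.8% to 45.3%).

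FOX letters stood in 4.68% (3.42% to 6.23%), below the 7.34% of all distal regions, 7.26% of limb EGFP+ alone and 7.40% of limb EGFP− alone, while the interval overlapped that of the trunk class at 6.51% (4.37% to 9.27%). SOX letters, the motif family of the chondrocyte factor SOX9, stood in 2.98% (1.99% to 4.27%), against 4.24%, 3.88% and 5.92%, and 5.12% (3.23% to 7.64%) in the trunk class. MEF2 letters stood in 2.02% (1.22% to 3.14%), against 1.34% of all distal regions and 1.86% of the trunk class. TEAD letters stood in 11.1% (9.12% to 13.2%), against 9.32% and 9.30%. GC content differed between the classes, with a median of 50.9% in the trunk class, and its part in the motif shares was not tested. Apart from T-box, posterior HOX, MEIS and FOX, every one of the 19 motifs had an interval that held the share over all distal regions.

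**Figure D5:**
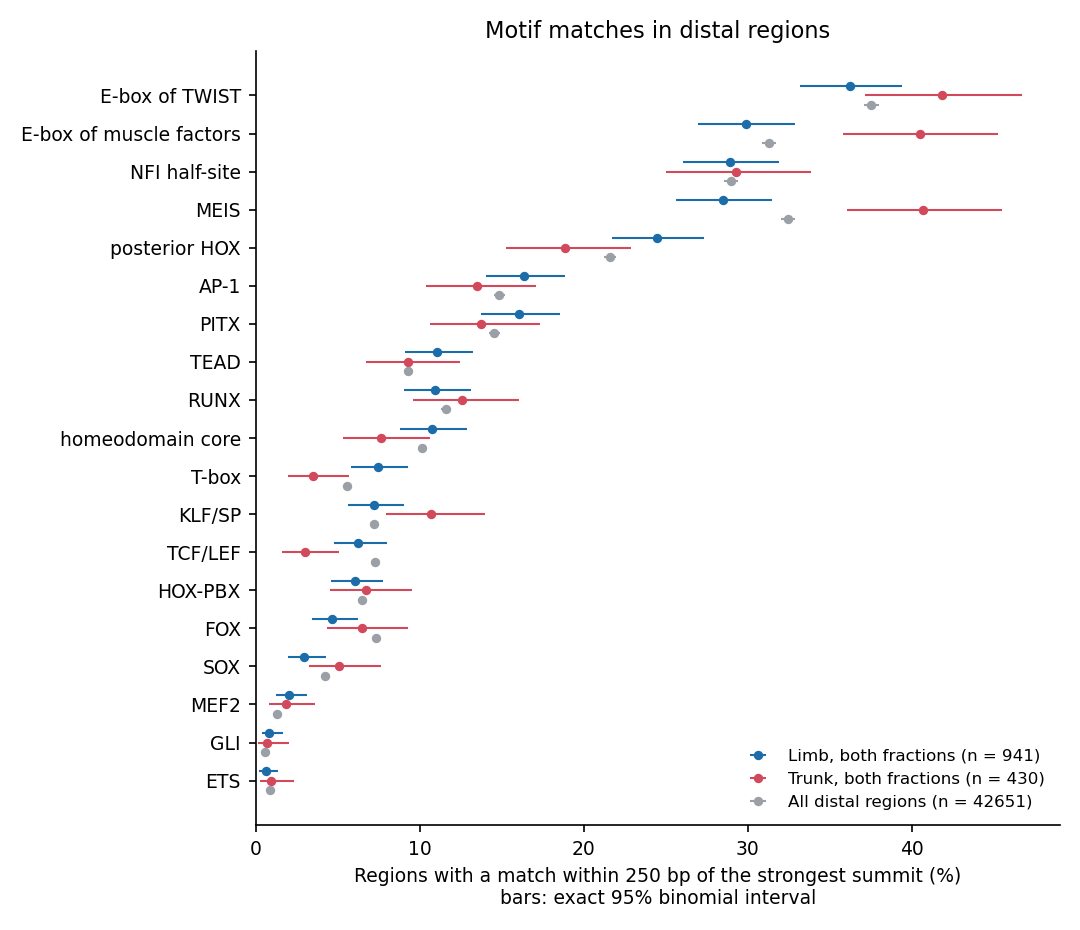
Share of regions with a match within 250 bp of the strongest summit (horizontal axis, percent) for 19 motifs, in the limb regions of both fractions, the trunk regions of both fractions and all distal regions, with exact 95% binomial intervals for counting error only. The blue points lie within a few percentage points of the grey ones at every motif, and the red points lie to the right of the blue for MEIS and the muscle E-box and to the left for T-box and posterior HOX.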

How the data were processed

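The data were the H3K27ac peak lists of 4 ChIP-seq libraries, 1 each of limb EGFP+, limb EGFP−, trunk EGFP+ and trunk EGFP− cells. Per the methods of the study, the authors sampled a similar number of reads from each library, trimmed them with cutadapt 1.18, mapped them to the GRCm39 genome with Bowtie2 2.3.5.1 and discarded reads of low mapping quality. Peaks were called per library by MACS2 2.2.7.1 on reads extended to 200 bp. No control library and no q threshold were named in the sources used here. Each entry of the deposited lists is a summit with a score (10 times the −log10 q without decimals), a −log10 p, a −log10 q and a fold over MACS2's local background, which is a ratio within 1 library. All 4 values were computed by the authors' MACS2 run.

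Summits of 1 start and end were joined, intervals on chromosomes 1 to 19, X and Y that overlapped by at least 1 bp were merged, and regions touching the promoter window of any of 67388 start sites of 21581 protein-coding genes (GENCODE vM39, GRCm39) were set aside. Whole reads and local background at each summit were solved from the fold and the −log10 p, within a tolerance of 0.2% for 100% of the summits. The median summit held 24 to 26 reads in the 4 lists. Binomial and Poisson intervals (exact, 95%) cover only counting error. Each region was assigned to the genes within 100 kb of a start site, and motifs and 31-mer copies were read from the GRCm39 genome.

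The members and the lists of genes and motifs were chosen with earlier results of these data known. Named were list genes with at least 3 regions, the 10 genes with the most regions (ties only if 5 or fewer, which left 5), the 10 regions of highest lower −log10 p, the 3 highest and 3 lowest ratios among regions with at least 30 reads, the strongest region at the leading list genes, and the 5 longest chains. The other list genes in the text were named because a region lay within 100 kb, and this was chosen after their values were seen. Alternatives were a −log10 q of at least 5, the 20000 strongest intervals, a fold of at least 4, a 50% overlap, no trunk interval within 1 or 5 kb, no promoter filter, a distance of 5 kb, autosomes alone, unscaled reads, other gene windows and a 100 bp motif window. Regions at 1 genome copy were added after the values were seen. The scripts were tested on simulated data. The genome was indexed with samtools 1.23.1 and read with pysam 0.24.0. Tables were handled with pandas 2.3.3 and numpy 2.4.6, intervals came from scipy 1.17.1, and plots were drawn with matplotlib 3.10.9, all under Python 3.11.15.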

Additional observations from a re-analysis of the deposited data

How the results depend on the processing

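The number of regions fell from 941 to 48.1% of that number (453 regions) with all 4 lists limited to a −log10 q of 5 or more, and to 15.4% with that limit on the limb lists alone. It fell to 21.9% (206) with the 20000 strongest intervals per list, to 24.4% (230) with a fold of at least 4 in the limb, and to 58.0% (546) without a trunk interval within 5 kb. It stayed within 1.5 times under the other 6 alternatives. The share with more EGFP+ than EGFP− reads was 51.1% without scaling, 72.4% at the limb limit on q and 83.5% with 20000 intervals per list. The share near limb patterning genes was 0.690% (1 region) and 0.485% (1 region) under these limits and 3.72% within 500 kb, where the share over all distal regions was 2.04%. All 19 motif shares were lower within 100 bp of the summit.

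No paired analysis was possible because each population has 1 library, the only replicate number the labels share is 1, and no result comes from a test. Depth limits the absence of trunk peaks, since a median of 11 reads was needed for a call. Lane cannot be told apart from tissue, the part of read length and sonication was not tested, and folds were not compared between libraries.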
